A study of Mus musculus with 12 samples.

Results

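Transcripts of 10 genes known from neutrophils and from the acute-phase response were followed in tumor-associated macrophages (TAMs) of B16 melanoma, namely S100a8, S100a9, Lcn2, Slpi, Saa3, Hp, Chil3, Retnlg, Csf3r and Cxcr2. They are 10 of the 55401 genes in each of 2 deposited count tables, and each symbol stood on a single row. The genes were chosen by their levels in these same libraries, so those levels are a description and carry no p-values. Bulk RNA-seq was made from TAMs sorted from subcutaneous tumors of B16-F10, a mouse melanoma cell line. The mice were 5 weeks old, on a C57BL/6 background and female per the methods, with no drug given to any group. The first table holds 3 early-stage samples, from tumors of day 8, and 3 late-stage samples, from tumors of day 15, all from mice labelled WT. The second table holds 3 WT samples, there meaning mice labelled AMPK fl/fl with no cre named, and 3 AMPK-KO samples. The titles of the AMPK-KO samples write AMPK fl/fl Lyz2cre/cre, while the genotype labels of some write another number after Lyz. Both groups come from tumors of day 15 per the methods. AMPK is a kinase that senses low cellular energy, and Lyz2 drives cre in monocytes, macrophages and neutrophils alike. How many animals went into a sample is not given in the sources used here, so the spread between samples may be partly technical.

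S100a8 and S100a9 pair to form calprotectin, a main protein of the neutrophil cytosol. Lcn2 and Slpi are stored in neutrophil granules, Lcn2 withholding iron from bacteria and Slpi blocking serine proteases. Saa3 and Hp belong to the acute-phase response, in which interleukin 1, interleukin 6 and tumor necrosis factor switch on secreted proteins through C/EBP, NF-kB and STAT3 factors, and macrophages make Saa3 locally. Chil3 and Retnlg are secreted products of myeloid cells, while Csf3r and Cxcr2 are the receptors that take neutrophils through maturation and out of the bone marrow. Many of these genes are also active in classical monocytes, from which TAMs arise.

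Promoters are shown for 5 of the genes that were lower in late-stage TAMs, those with over 150 bases free of annotated exons. As the genes were chosen by their levels, nothing is read from their being low together, and shared regulation was not tested. RefSeq windows of 250 bases before the transcription start (GRCm38.p6) were matched for 9 of the 10 genes, the remaining gene being Hp. Bases within any GENCODE M21 exon were left out, so that the Saa3 and S100a8 stretches hold 226 and 157 bases. The Slpi window lies inside the GENCODE gene, which starts further upstream. Capitals mark the C/EBP-like letters TTGCNNAA, read on both strands, and the STAT-like letters TTCNNNGAA, which are their own reverse complement. No stretch held both.
Saa3 (chr7:46715701-46715926, minus strand): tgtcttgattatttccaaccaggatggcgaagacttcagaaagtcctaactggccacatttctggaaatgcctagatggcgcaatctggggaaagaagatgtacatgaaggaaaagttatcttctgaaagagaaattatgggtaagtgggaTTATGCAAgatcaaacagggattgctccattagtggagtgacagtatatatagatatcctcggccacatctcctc
Slpi (chr2:164356508-164356757, minus strand): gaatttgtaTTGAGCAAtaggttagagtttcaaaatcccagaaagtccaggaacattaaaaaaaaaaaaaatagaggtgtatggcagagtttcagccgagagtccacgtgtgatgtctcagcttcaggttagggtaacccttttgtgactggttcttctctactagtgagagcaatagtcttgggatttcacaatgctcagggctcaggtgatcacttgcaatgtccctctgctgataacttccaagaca
S100a9 (chr3:90695722-90695971, minus strand): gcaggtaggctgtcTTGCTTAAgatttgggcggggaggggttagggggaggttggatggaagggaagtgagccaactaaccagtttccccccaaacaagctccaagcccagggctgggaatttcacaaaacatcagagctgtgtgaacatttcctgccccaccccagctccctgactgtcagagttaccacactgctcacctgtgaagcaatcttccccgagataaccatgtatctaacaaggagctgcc
S100a8 (chr3:90668821-90668977, plus strand): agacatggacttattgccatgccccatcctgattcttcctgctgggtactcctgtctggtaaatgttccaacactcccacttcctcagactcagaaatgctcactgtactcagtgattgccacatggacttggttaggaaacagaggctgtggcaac
Chil3 (chr3:106167565-106167814, minus strand): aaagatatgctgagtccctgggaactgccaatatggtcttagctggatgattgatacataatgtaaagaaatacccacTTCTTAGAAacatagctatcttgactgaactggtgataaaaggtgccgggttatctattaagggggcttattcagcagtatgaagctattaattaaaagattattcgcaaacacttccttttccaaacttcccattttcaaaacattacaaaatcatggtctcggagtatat
The C/EBP-like letters began 99 bases before the RefSeq start of Saa3, 241 before that of Slpi and 236 before that of S100a9. For Saa3 the 24 bases next to that start lie in a GENCODE exon, are not printed and are counted in the 99. The STAT-like letters began 172 bases before the start of Chil3, and the S100a8 stretch had neither. Over the full windows the C/EBP-like letters were in 5 of the 9 genes (Lcn2, Retnlg, S100a9, Saa3, Slpi) and in 9.56% of all 32851 windows, and the STAT-like letters in 1 of 9 and in 7.02%. These are matches of letters and not shown binding sites.

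Library totals ranged from 71019494 to 84470374 counts, and levels are given as CPM, counts scaled to library size. A gene with 0 counts in a library could have a level of up to 3 counts, or 0.0357 to 0.0416 CPM, counting error alone. Prkaa1, the catalytic subunit alpha 1 of AMPK, had 4535 to 5165 counts in the WT and 3285 to 3467 in the AMPK-KO libraries, where it fell by 0.60 on the log2 scale. Lyz2 had 671 to 975 counts in the WT and 676 to 1088 in the AMPK-KO libraries, against 88212 to 249165 in the first table. The labels of the WT mice name no cre, and whether these mice carry it was not tested. The 4 Y-linked genes listed summed to 3435 to 4035 counts in the early-stage, 0 to 4 in the late-stage, 9229 to 11360 in the WT and 11299 to 12183 in the AMPK-KO libraries, while the methods name female mice. Tumor stage and the sex of the cells cannot be told apart in these data.

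Ly6g and many granule genes of neutrophils were at or near 0 in these cells. The methods define TAMs as CD45+ CD11b+ F4/80+ cells without Ly6C and Ly6G, while legends in the supplement write Ly6C+ and, in one case, Ly6G+, so which gate the sequenced cells passed is not certain. Of 36 other neutrophil genes listed, 34 were in the tables, and 12 of them had at most 20 counts in every one of the 12 libraries. They were Ly6g, the surface antigen that defines mouse neutrophils, the granule genes Mpo, Elane, Ctsg, Camp and Ngp, the stefins Stfa1, Stfa2 and Stfa2l1, and Ceacam10, Itgb2l and Mrgpra2b. Ly6g had 5 counts in late-stage replicate 3 and 0 in the other 11 libraries. At the other end, 6 genes had at least 1000 counts in every library, namely Anxa1, Clec4d, Clec4e, Fpr2, Mmp8 and Mxd1, several of which monocytes and macrophages also express. Averaged over the 12 libraries, the level per kilobase of exon ran from 0.0786 CPM per kb for Cxcr2 to 27.5 for Csf3r over the 10 genes, with a median of 5.05. It ran from 0 to 92.2 CPM per kb over the other neutrophil genes (median 0.536), from 0.965 to 194 over 13 classical monocyte genes (median 8.78) and from 15.9 to 2359.6 over 12 macrophage genes (median 262). The 10 genes are therefore called by name, and no number of neutrophils was read from them. In bulk samples, fewer cells of a type and less RNA per cell cannot be told apart.

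**Figure D1:**
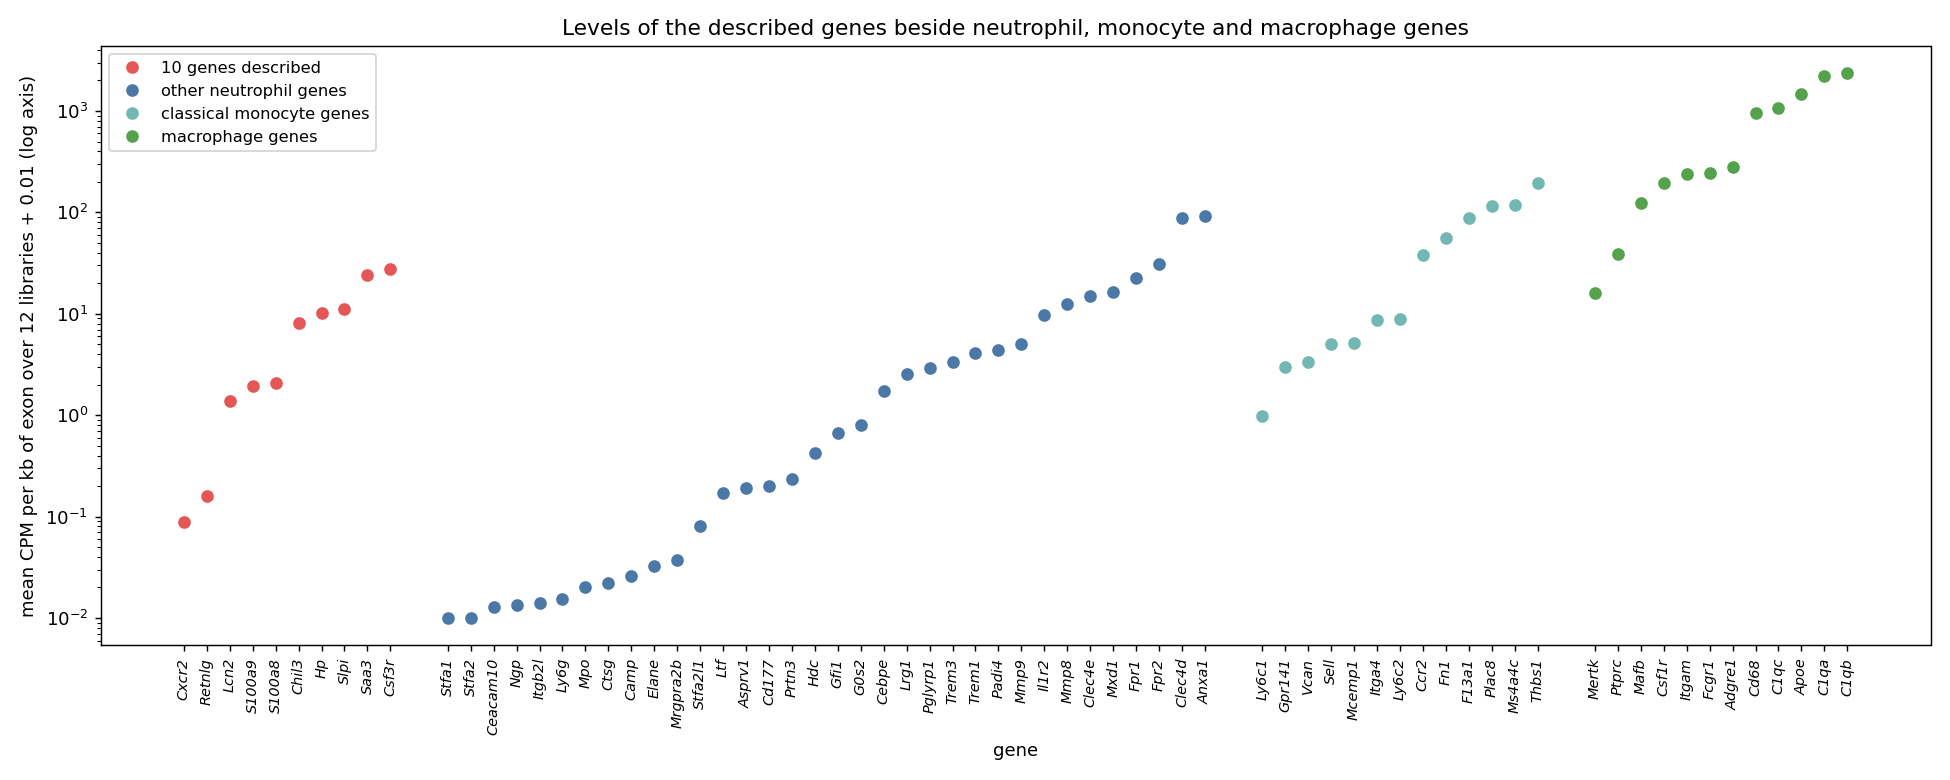
Mean level of each gene over the 12 libraries in CPM per kb of exon, with 0.01 added, on a log axis, one point per gene, for the 10 genes described, 34 other neutrophil genes, 13 classical monocyte genes and 12 macrophage genes. Ly6g and the granule genes Mpo, Elane, Ctsg, Camp and Ngp lie below Cxcr2 and Retnlg, and Saa3 and Csf3r lie within the range of the monocyte genes.

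To see how these transcripts stood as tumors grew, late-stage TAMs were compared with early-stage TAMs. S100a8, S100a9, Lcn2, Slpi, Saa3, Hp and Chil3 were lower in all 3 late-stage libraries than in any early-stage library, from 2.76-fold for Slpi to 27.5-fold for Saa3, while over all genes tested 15.6% were lower and 15.6% higher without overlap (31.2% together). Csf3r and Cxcr2 overlapped between the stages, and Retnlg was close to 0. Of the 9 genes that passed the filter on low counts, 7 were called lower at an adjusted p under 0.05 (edgeR, quasi-likelihood) and 0 higher, where over all 17630 genes tested 4.88% were called lower, 4.31% higher and 9.18% in either direction. All 7 also had an absolute log2 fold change above 1, as did 1.87% of all genes tested. The 7 calls numbered 6 without early-stage replicate 2 or 3 or any one late-stage replicate. Since these levels were part of the choice of genes, nothing is read from those counts. The median log2 fold change was -2.33 over the 9 genes and 0.00266 over all genes tested.

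The calprotectin genes lie side by side on chromosome 3, 22596 bases apart. S100a8 (ENSMUSG00000056054.9, chr3:90668978-90670035) had 2.03, 1.86 and 2.96 CPM in the early-stage and 0.143, 0.499 and 0.351 CPM in the late-stage libraries. S100a9 (ENSMUSG00000056071.12, chr3:90692632-90695721) had 0.64, 0.763 and 0.761 CPM in the early-stage and 0.0833, 0.212 and 0.133 CPM in the late-stage libraries. Both were low in all 6 libraries and lowest in the late-stage ones, where S100a8 rested on 12 to 40 counts and S100a9 on 7 to 17. The log2 fold change was -2.78 (SE 0.44) for S100a8 and -2.33 (SE 0.54) for S100a9. Per kilobase of exon, the level of S100a8 was 1.84 to 2.93 times that of S100a9 in the early-stage and 1.29 to 1.98 times in the late-stage libraries.

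Lcn2 (ENSMUSG00000026822.14, chr2:32384633-32388252), which binds the siderophores that bacteria use to take up iron, had 2.75, 2.91 and 2.32 CPM in the early-stage and 0.428, 0.25 and 0.387 CPM in the late-stage libraries. The levels did not overlap, and the log2 fold change was -2.90 (SE 0.31). Slpi (ENSMUSG00000017002.14, chr2:164354070-164389095), an inhibitor of neutrophil elastase and cathepsin G, had 13.3, 12.6 and 10.9 CPM in the early-stage and 3.55, 4.22 and 5.52 CPM in the late-stage libraries. Its log2 fold change of -1.47 (SE 0.18) was the least of the 7 genes that were lower without overlap.

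Saa3 (ENSMUSG00000040026.8, chr7:46711998-46715700), a serum amyloid A made outside the liver, showed the widest gap of the 10 genes. It had 168, 124 and 89 CPM in the early-stage and 4.97, 5.02 and 3.85 CPM in the late-stage libraries, with a log2 fold change of -4.78 (SE 0.23). The early-stage libraries were spread widely, whereas the late-stage libraries lay close together. Hp (ENSMUSG00000031722.10, chr8:109575128-109579172), haptoglobin, which binds free hemoglobin, had 23.6, 21.2 and 23.7 CPM in the early-stage and 3.41, 4.21 and 4.56 CPM in the late-stage libraries. Its log2 fold change was -2.49 (SE 0.14), with little spread in either group.

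Chil3 (ENSMUSG00000040809.10, chr3:106147554-106167564), a chitinase-like lectin of myeloid cells, had 21.7, 22 and 25.2 CPM in the early-stage and 7.01, 6.02 and 6.68 CPM in the late-stage libraries. The groups did not overlap, and the log2 fold change was -1.81 (SE 0.12). Its near-identical paralog Chil4 had 0 counts in all 12 libraries, and how reads shared between such copies were counted is not given in the sources used here. Retnlg (ENSMUSG00000022651.6, chr16:48872621-48874496), a resistin-like secreted protein of neutrophils, had 0 counts in all early-stage libraries and in 2 late-stage libraries, and 10 counts in late-stage replicate 3. It did not pass the filter, and no difference was detectable at this depth.

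Csf3r (ENSMUSG00000028859.14, chr4:126024550-126044440), the receptor for G-CSF, had 84.3, 76.5 and 69.8 CPM in the early-stage and 78.9, 66.4 and 63.6 CPM in the late-stage libraries. The groups overlapped, with a log2 fold change of -0.14 (SE 0.10). Cxcr2 (ENSMUSG00000026180.8, chr1:74153989-74161246), the receptor for the neutrophil-attracting CXC chemokines, had 4, 8 and 16 counts in the early-stage and 16, 21 and 6 counts in the late-stage libraries. Those counts overlapped, and its log2 fold change of 0.60 had an SE of 0.83. As a share of the summed CPM of the 10 genes, Saa3 made up 39.6% to 53.1% in the early-stage and 4.51% to 5.77% in the late-stage libraries, and Csf3r 26.6% to 31.1% and 74.6% to 80.0%.

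**Figure D2:**
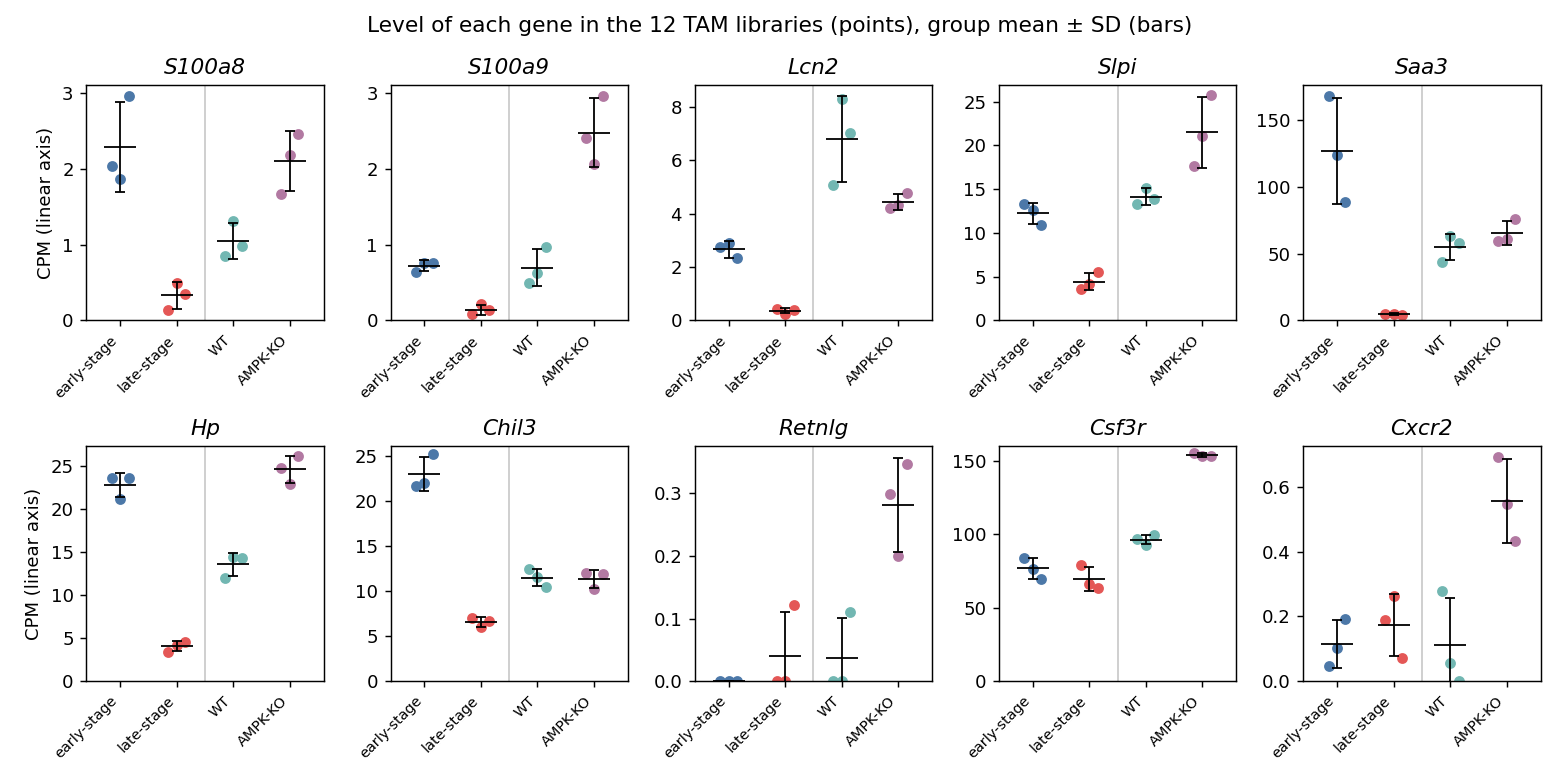
Level of each of the 10 genes in CPM on linear axes from 0, one panel per gene, with a point for each of the 3 libraries per group and bars for the group mean ± SD, cut at 0, the 2 tables being scaled separately. Saa3 sits between 3.85 and 5.02 CPM in the late-stage libraries and at 43.9 CPM or more in the other 9.

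Genes of monocytes moved in the same comparison. Of 13 classical monocyte genes listed besides Hp and Chil3, 11 fell, 0 rose and 2 did not pass the test, with a median log2 fold change of -1.14. Ly6c2 fell from 30.1 ± 1.51 to 8.39 ± 1.38 CPM (SD, n = 3), and Thbs1, the most abundant gene of the list, fell by 0.94 on the log2 scale. The summed level of the list was 3232 to 3789.7 CPM in the early-stage and 1631 to 1889 CPM in the late-stage libraries. Among markers of other cells, 6 of 8 B16 melanoma genes, 5 of 7 NK cell genes and 3 of 7 fibroblast genes fell, 3 of 8 T cell genes and 4 of 6 B cell genes rose, and of 12 macrophage genes 1 rose. The B16 melanoma list summed to 1731 to 1886 CPM in the early-stage and 795 to 1254 CPM in the late-stage libraries, and the NK cell list to 89.1 to 103 and 39.7 to 54.2 CPM. Of 17 genes of keratinocytes or epithelium, cells that express several of the 10 genes in inflamed skin, 6 passed the filter, 1 rose and 0 fell, and 6 were at 0 in all 6 libraries, among them Krt1, Krt15 and Krt6a. That list summed to 6.74 to 8.16 CPM in the early-stage and 10.3 to 11.7 CPM in the late-stage libraries, its most abundant gene being Cdh1 (log2 0.70, adjusted p = 0.0203). The part of monocytes, of other cells or of sex in the differences of the 10 genes was not tested.

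Of the other neutrophil genes, 22 passed the filter, of which 9 fell and 0 rose, with a median log2 fold change of -0.46. Fpr1, a receptor for formylated bacterial peptides, fell from 34.4 ± 4.48 to 10.8 ± 0.497 CPM (log2 -1.67, adjusted p = 4.26e-05). Clec4d and Clec4e, lectin receptors for mycobacterial glycolipids, fell by 1.14 and 1.18 on the log2 scale, and Padi4, the enzyme that citrullinates histones when neutrophils release their chromatin, by 1.27. Of 15 ligands, cytokines and receptors around Cxcr2 and Csf3r, 8 fell and 0 rose. Ppbp, a CXCR2 ligand best known from platelets, fell from 88.3 ± 2.21 to 22.5 ± 1.64 CPM (log2 -1.97, adjusted p = 2.14e-06), and the receptor chains Csf2rb2 and Csf2rb and the retention receptor Cxcr4 by 0.71, 0.38 and 0.39 on the log2 scale. The count of 8 was 2 without early-stage replicate 2, and 4, 2 and 3 without late-stage replicate 1, 2 and 3. Csf2rb and Cxcr4 lost their calls without early-stage replicate 2 or late-stage replicate 2 or 3. Ppbp also stood among 7 erythroid or platelet genes tested, of which 3 fell and 0 rose. That marker list summed to 448 to 614 CPM in the early-stage and 243 to 272 CPM in the late-stage libraries. The part of platelets in the level of Ppbp was not tested.

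Of 28 acute-phase proteins and inducers besides Saa3 and Hp, 14 passed the filter, 4 fell and 0 rose. C3, the central complement protein, fell from 332 ± 28.7 to 146 ± 13.1 CPM (log2 -1.18, adjusted p = 6.82e-05), and Il1b, an inducer of the response, from 224 ± 31.2 to 103 ± 9.68 CPM (log2 -1.12, adjusted p = 0.000337). Il6st, the signaling chain of the interleukin 6 receptor, and Lbp, which hands lipopolysaccharide to Cd14, fell by 0.37 and 1.05 on the log2 scale. Both calls were lost without early-stage replicate 2 or any one late-stage replicate, and that of Lbp also without early-stage replicate 1, so that the count of 4 was 2 without early-stage replicate 2 or any one late-stage replicate. It was 6 without early-stage replicate 3. Of the liver products on the list, Saa2, Saa4, Apcs and Serpina3m were at 0 in these 6 libraries. Late-stage replicate 2 held 415 counts of Hpx, hemopexin, 147 of Fgb, a fibrinogen chain, and 48 of Itih3, against at most 12, 7 and 0 in the other 5 libraries, which was named after the values were seen. Without that library the log2 fold change of Hp was -2.52 and that of Saa3 -4.85. Leaving it out does not bear on why these genes were lower, and the part of liver transcripts in the differences was not tested.

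Of 14 transcription factors and inhibitors of the response, 1 fell, 1 rose and 12 did not pass the test. Hif1a, the oxygen-sensing factor, fell by 0.61 on the log2 scale, and Nfkb1, a subunit of NF-kB, rose by 0.26, a call lost without early-stage replicate 2 or 3 or any one late-stage replicate. Nfkbiz, a nuclear partner of NF-kB, stood at 0.35 on the log2 scale (adjusted p = 0.0525) and was called without early-stage replicate 1. Cebpb, a C/EBP factor of the acute phase, stood at -0.39 (adjusted p = 0.342) and was called at -0.65 without early-stage replicate 3. The count of 2 was 5 without early-stage replicate 1, and 1 without early-stage replicate 2 or any one late-stage replicate.

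Among 18 receptors and partners of the proteins, 7 fell and 2 rose. Cd163, which takes up haptoglobin bound to hemoglobin, fell from 51.1 ± 5.21 to 16.7 ± 3.39 CPM (log2 -1.62, adjusted p = 0.00019). Cd36, a scavenger receptor that binds serum amyloid A, and Cd14, a co-receptor of Tlr4, fell by 0.72 and 0.70 on the log2 scale, and Cd33, whose human counterpart binds calprotectin subunits, rose by 0.92. The count of 9 was 3 without early-stage replicate 2 and 4 and 3 without late-stage replicate 2 and 3. Cd14 lost its call without each of those 3 libraries. Of 32 paralogs 14 passed the filter, 6 fell and 0 rose. The calcium-binding S100a10, S100a11, S100a4 and S100a6 fell by 0.57, 0.66, 0.58 and 0.69 on the log2 scale.

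**Figure D3:**
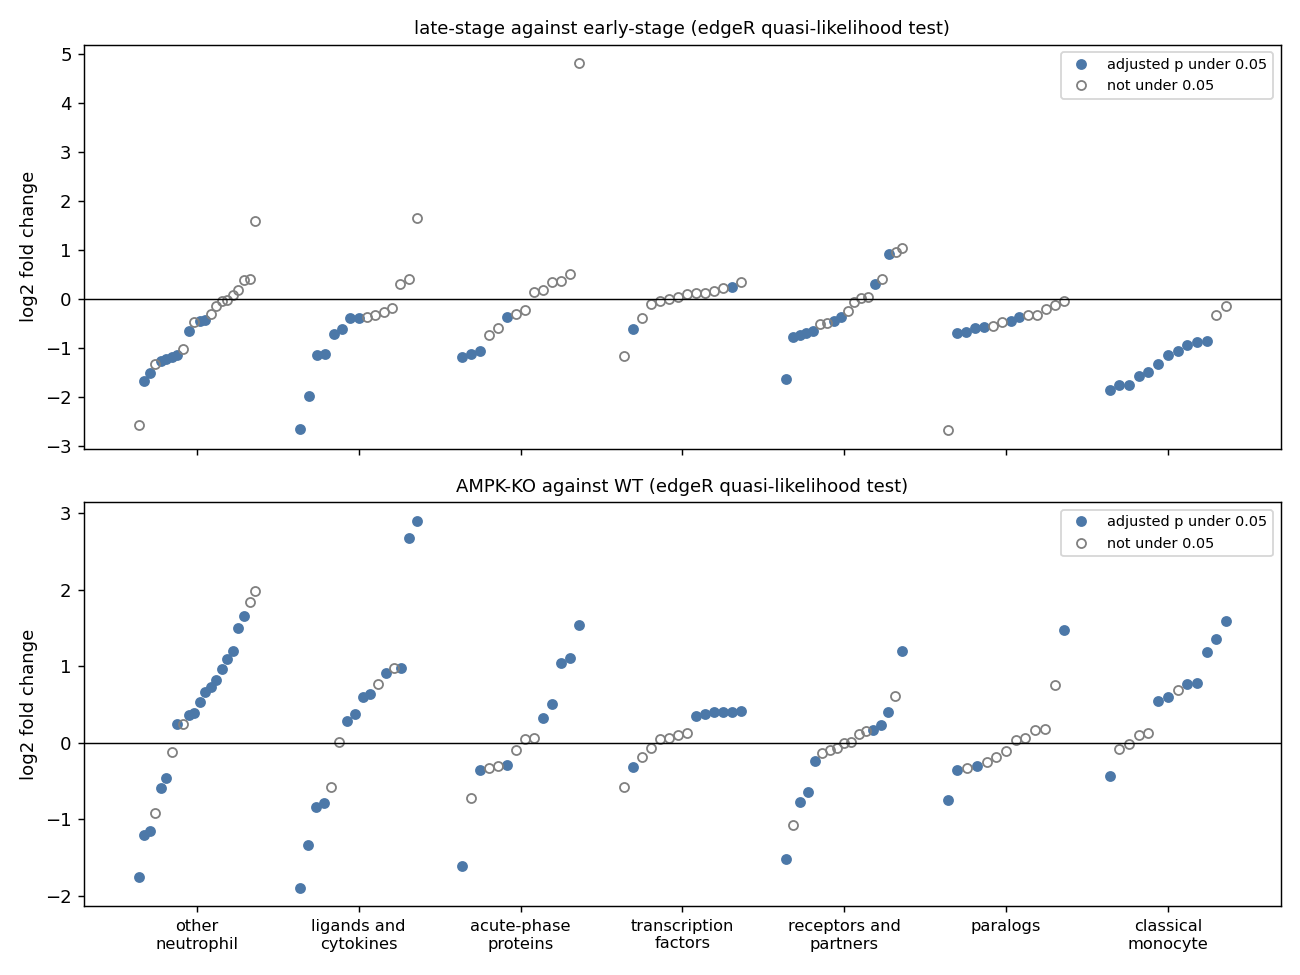
Log2 fold change of each tested gene of 7 lists, without the 10 genes described, late-stage against early-stage above and AMPK-KO against WT below, with filled points for an adjusted p under 0.05 and open points for the others. In the upper panel 11 of 13 classical monocyte genes are filled and below 0, and in the lower panel 12 of 22 other neutrophil genes are filled and above 0.

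To see how the transcripts stood when AMPK was deleted, AMPK-KO TAMs were compared with WT TAMs of the same day. S100a8, S100a9, Hp, Slpi and Csf3r were higher in all 3 AMPK-KO libraries than in any WT library, from 1.52-fold for Slpi to 3.53-fold for S100a9, and so were Retnlg and Cxcr2 on few counts. Lcn2 was lower without overlap, and Saa3 and Chil3 overlapped. Over all genes tested 18.8% were higher and 18.4% lower without overlap (37.2% together). All 10 genes passed the filter, and 5 were called higher and 1 lower at an adjusted p under 0.05 (edgeR, quasi-likelihood), where over all 17532 genes tested 11.3% were called higher, 9.78% lower and 21.1% in either direction. Of those called, 2 had an absolute log2 fold change above 1, as did 3.34% of all genes tested. The one lower call, that of Lcn2, was lost without WT replicate 2 or 3 or any one AMPK-KO replicate and with no filter beyond 1 count, and the higher calls numbered 4 without AMPK-KO replicate 2 or 3 and with no filter beyond 1 count. These levels too were part of the choice, and nothing is read from the counts. The median log2 fold change was 0.77 over the 10 genes and -0.00369 over all genes tested.

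S100a8 had 0.847, 1.32 and 0.981 CPM in the WT and 1.67, 2.18 and 2.45 CPM in the AMPK-KO libraries, with a log2 fold change of 1.00 (SE 0.27). S100a9 had 0.50, 0.623 and 0.969 CPM in the WT and 2.4, 2.06 and 2.96 CPM in the AMPK-KO libraries, with a log2 fold change of 1.82 (SE 0.30). Both were higher without overlap. Per kilobase of exon, the ratio of S100a8 to S100a9 was 0.762 to 1.59 in the WT and 0.523 to 0.798 in the AMPK-KO libraries, where S100a9 was the more abundant of the pair in all 3.

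The transcripts of the iron-withholding Lcn2 and the protease-blocking Slpi differed in direction. Lcn2 had 5.08, 8.29 and 7.0 CPM in the WT and 4.21, 4.32 and 4.79 CPM in the AMPK-KO libraries, the one gene of the 10 that was lower without overlap (log2 fold change -0.61, SE 0.18). Slpi had 13.3, 15.2 and 13.9 CPM in the WT and 17.7, 21 and 25.8 CPM in the AMPK-KO libraries, with a log2 fold change of 0.61 (SE 0.13). The AMPK-KO libraries were the more spread for Slpi and the WT libraries for Lcn2.

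The acute-phase pair also parted. Saa3 had 43.9, 63.1 and 58 CPM in the WT and 59.5, 60.9 and 75.7 CPM in the AMPK-KO libraries, which overlapped (log2 fold change 0.25, SE 0.13). Hp had 12, 14.4 and 14.3 CPM in the WT and 24.8, 22.9 and 26.1 CPM in the AMPK-KO libraries, a log2 fold change of 0.86 (SE 0.10) without overlap. Chil3 had 12.4, 11.6 and 10.5 CPM in the WT and 12, 10.2 and 11.9 CPM in the AMPK-KO libraries, and its log2 fold change of -0.01 had an SE of 0.11.

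Csf3r had the smallest SE of the 10 genes, with 97, 93.1 and 99.4 CPM in the WT and 156, 153 and 154 CPM in the AMPK-KO libraries (log2 fold change 0.68, SE 0.05). Cxcr2 had 20, 4 and 0 counts in the WT and 51, 44 and 35 counts in the AMPK-KO libraries, and Retnlg had 0, 0 and 9 counts in the WT and 22, 16 and 28 counts in the AMPK-KO libraries. Neither overlapped, and the AMPK-KO counts of Retnlg were 5.33 to 9.33 times the floor of 3 counts. The fitted log2 fold changes were 2.33 (SE 0.97) for Cxcr2 and 2.83 (SE 1.15) for Retnlg and were not called. Each hung on a single WT library, the value for Cxcr2 being 4.30 without WT replicate 1 and that for Retnlg 7.42 without WT replicate 3, where the WT libraries left hold 4 counts or none and the fitted value is no bound.

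The WT and AMPK-KO libraries differed in markers of several cells. Of the 13 classical monocyte genes, 7 rose, 1 fell and 5 did not pass the test, with a median log2 fold change of 0.60. Ly6c2 rose from 17.6 ± 0.163 to 40.2 ± 3.27 CPM (SD, n = 3), while Thbs1 stood at -0.02 on the log2 scale (adjusted p = 0.893). The list summed to 3676 to 4100.5 CPM in the WT and 3889 to 4301 CPM in the AMPK-KO libraries. Of the genes of the sort, Ptprc, which encodes CD45, and Itgam, which encodes CD11b, rose by 0.68 and 0.55 on the log2 scale, while Adgre1, which encodes F4/80, stood at 0.12 (adjusted p = 0.102). All 7 NK cell genes, 7 of 8 T cell genes and 6 of 7 fibroblast genes rose, 7 of 8 B16 melanoma genes fell, and of 12 macrophage genes 3 rose and 2 fell. The NK cell list summed to 33.3 to 37.2 CPM in the WT and 81.7 to 84.9 CPM in the AMPK-KO libraries. Ly6g, Ctsg, Ngp, Stfa1, Stfa2 and Ceacam10 were at 0 in these 6 libraries. Of 22 other neutrophil genes tested, 12 rose and 5 fell, as given below. The part of these cells in the differences of the 10 genes was not tested.

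Of the 22 other neutrophil genes tested, 12 rose, 5 fell and 5 did not pass the test, with a median log2 fold change of 0.47. Some on low counts were higher, Ltf having 0 to 30 counts in the WT and 42 to 68 in the AMPK-KO libraries. G0s2 had 24 to 46 and 92 to 146 counts, and Hdc 120 to 227 and 419 to 508. Prtn3 went the other way, with 46 to 72 and 10 to 28 counts. Ltf, G0s2, Hdc and Prtn3 were named after their values were seen. Fpr2, a formyl peptide receptor that also binds serum amyloid A, rose from 26.1 ± 1.98 to 60.0 ± 2.77 CPM (log2 1.20, adjusted p = 2.13e-06), and Il1r2, the decoy receptor for interleukin 1, from 17 ± 0.933 to 36.4 ± 3.11 CPM (log2 1.10, adjusted p = 1.2e-05). Padi4 fell from 43.4 ± 1.27 to 18.8 ± 1.06 CPM (log2 -1.21, adjusted p = 1.85e-06), and Anxa1, annexin A1, which dampens neutrophil recruitment, by 0.46 on the log2 scale. Of the 16 ligands, cytokines and receptors around Cxcr2 and Csf3r, 8 rose and 4 fell. The 4 that fell were the CXCR2 ligands Ppbp (log2 -1.90, adjusted p = 2.21e-07), Cxcl1 (-1.34, adjusted p = 5.33e-06), Cxcl3 (-0.78, adjusted p = 9.25e-05) and Cxcl2 (-0.84, adjusted p = 0.00021). Ppbp also stood among 7 erythroid or platelet genes tested, of which 5 fell and 0 rose. That marker list summed to 641 to 827 CPM in the WT and 314 to 371 CPM in the AMPK-KO libraries. The part of platelets in the level of Ppbp was not tested. Csf2rb, the shared chain of the GM-CSF and interleukin 3 receptors, rose from 197 ± 12.3 to 306 ± 10.6 CPM (log2 0.64, adjusted p = 2.42e-05). Csf3, which encodes G-CSF, the ligand of Csf3r, had 117 to 217 counts in the WT and 266 to 385 in the AMPK-KO libraries (log2 0.92, adjusted p = 0.0151), and Il17a, a T cell cytokine that raises G-CSF in other cells, 17 to 21 and 124 to 166 counts (log2 2.90, adjusted p = 0.000112). Cxcl2, Csf3 and Il17a were named after their values were seen.

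Of the 14 acute-phase genes tested, 5 rose and 3 fell. C3 rose from 209 ± 13.2 to 611 ± 39.6 CPM (log2 1.55, adjusted p = 2.21e-07) and Il1b from 288 ± 8.69 to 595 ± 14.8 CPM (log2 1.05, adjusted p = 2.56e-07), and Cp, the copper carrier ceruloplasmin, by 0.51 on the log2 scale. Lbp fell from 6.36 ± 0.74 to 2.07 ± 0.39 CPM (log2 -1.61, adjusted p = 0.000126). The count of 8 was 5 without WT replicate 3. Of 14 transcription factors and inhibitors, 6 rose, 1 fell and 7 did not pass the test. Socs3, the feedback inhibitor of STAT3 signaling, Nfkb1, Irf8, a factor of monocyte development, and Stat3 rose by 0.42, 0.40, 0.40 and 0.37 on the log2 scale.

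Of 17 receptors and partners, 4 rose and 4 fell. Cd163 fell from 164 ± 4.85 to 96.1 ± 7.28 CPM (log2 -0.77, adjusted p = 1.37e-05), and the scavenger receptors Cd36 and Msr1 by 0.64 and 0.24 on the log2 scale. The count of 8 was 4 without WT replicate 3 and 5 without AMPK-KO replicate 1 or 2. Of 13 paralogs, 1 rose and 3 fell. Retnla, a resistin-like gene of alternatively activated macrophages, rose from 51.8 ± 5.49 to 144 ± 9.3 CPM (log2 1.48, adjusted p = 1.06e-06), while Wfdc17, which shares the fold of Slpi, fell by 0.75 on the log2 scale. S100a1 and S100a10 fell by 0.36 and 0.31, and these calls were lost without WT replicate 2 or 3 or AMPK-KO replicate 1 or 2. The count of 4 was 2 without WT replicate 2, WT replicate 3 or AMPK-KO replicate 1.

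**Figure D4:**
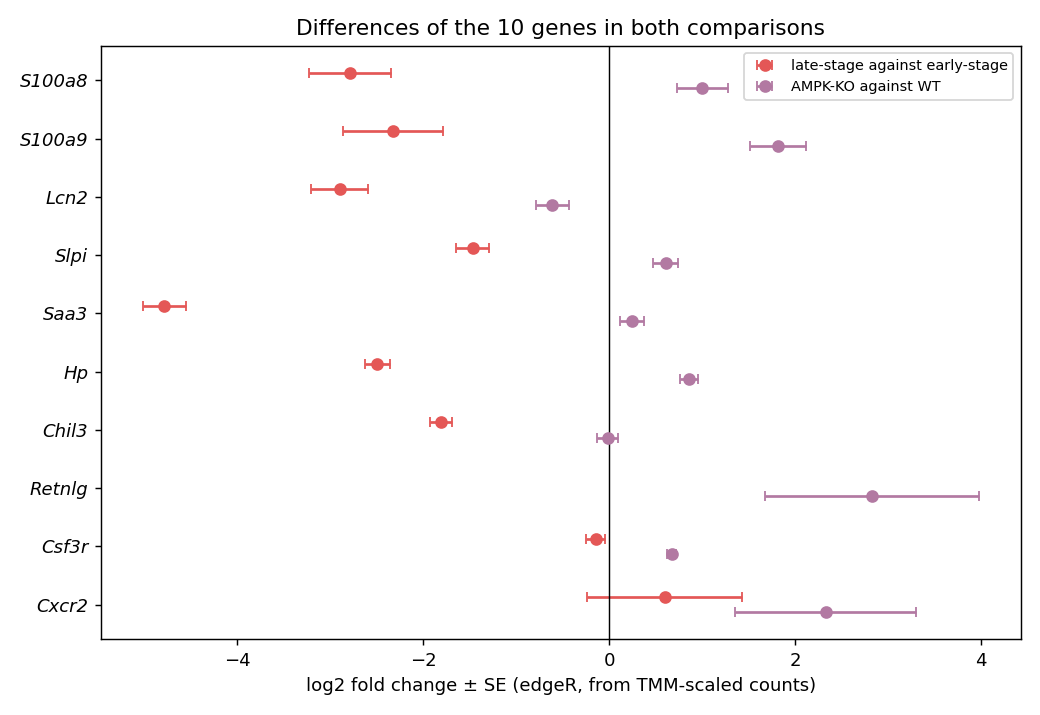
Log2 fold change with its SE for each of the 10 genes, late-stage against early-stage and AMPK-KO against WT, from the edgeR fit of each table, with Retnlg fitted for the genotypes only. S100a8, S100a9, Lcn2, Slpi, Saa3, Hp and Chil3 lie at -1.47 or lower for the stages, and Lcn2 (-0.61) and S100a9 (1.82) lie on opposite sides of 0 for AMPK-KO against WT.

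The comparisons share no library, and their values are set side by side without a test of the difference. S100a8, S100a9, Hp and Slpi were lower in late-stage and higher in AMPK-KO TAMs, and Lcn2 was lower in both, though its call between the genotypes was lost without single libraries, as given above. Saa3 and Chil3 differed between the stages and overlapped between the genotypes, and Csf3r did the reverse. Ordered by mean CPM over the 4 groups, 8 of the 10 genes were lowest in late-stage TAMs, while 6 were highest in AMPK-KO, 3 in early-stage and 1 in WT TAMs. The share of all genes with such orders was not counted, and nothing is read from these numbers. Any order over the 4 groups also crosses 2 tables that were scaled separately and differ in mouse line and Y-linked transcripts. Saa3 ran from 127 CPM in early-stage through 65.4 in AMPK-KO and 55 in WT to 4.61 in late-stage TAMs, where AMPK-KO and WT overlapped. S100a8 stood at 2.28 CPM in early-stage, 2.1 in AMPK-KO, 1.05 in WT and 0.331 in late-stage TAMs, with early-stage and AMPK-KO overlapping. S100a9 ran from 2.47 CPM in AMPK-KO to 0.721 in early-stage and 0.697 in WT, which overlapped, and 0.143 in late-stage TAMs. Lcn2 ran from 6.79 CPM in WT through 4.44 in AMPK-KO and 2.66 in early-stage to 0.355 in late-stage TAMs, no neighbors overlapping. The same held for Slpi in the order AMPK-KO, WT, early-stage and late-stage. For Hp the AMPK-KO and early-stage libraries overlapped at the top, for Chil3 the WT and AMPK-KO libraries in the middle, and for Csf3r the early-stage and late-stage libraries at the bottom.

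Compared between genes per kilobase of exon, the most abundant transcript changed with the group. In early-stage TAMs it was Saa3, with a mean level of 48.7 CPM per kb, followed by Csf3r with 21.3. In late-stage TAMs it was Csf3r with 19.3 CPM per kb, while Saa3 stood at 1.77. In the second table Csf3r led with 26.7 CPM per kb in WT and 42.7 in AMPK-KO TAMs, ahead of Saa3 with 21.1 and 25.1. Cxcr2 stayed at 0.183 CPM per kb or lower in all 4 groups.

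Late-stage and WT TAMs were both taken on day 15 from mice labelled as having AMPK. Late-stage TAMs were lower without overlap in 8 of the 10 genes, where 17.4% of the 16812 genes tested in both tables were lower and 22% higher without overlap (39.4% together). Nothing is read from the 8. The ratio of WT to late-stage mean CPM was 19.1 for Lcn2, 11.9 for Saa3, 4.88 for S100a9, 3.34 for Hp, 3.19 for Slpi, 3.16 for S100a8, 1.75 for Chil3 and 1.39 for Csf3r. Those libraries stand in separate tables scaled separately, and the table, the mouse line and the Y-linked transcripts cannot be told apart there, so no test was made.

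The genes whose levels most resembled S100a8, Saa3 and Chil3 were sought among 16803 genes by Pearson's r over the 12 libraries, each table centred on its own mean of log2 CPM. S100a8 was followed most closely by Cd24a (r = 0.964), a surface glycoprotein of leukocytes, Gzma (0.96), a protease of cytotoxic lymphocytes, and Col1a2 (0.957), a collagen of fibroblasts. Saa3 was followed by Arg1 (0.994), an arginine-degrading enzyme of myeloid cells, the Y-linked Eif2s3y (0.988) and Sgms2 (0.985), a sphingomyelin synthase. Chil3 was followed by the Y-linked Uty (0.99), Eif2s3y (0.988) and Kdm5d (0.987). The points of each r come from 4 groups and share depth and library, so these values describe the same groupings that the levels show. Arg1 had a mean of 1055 CPM in the early-stage and 420.1 in the late-stage libraries, and 918 in the WT and 917 in the AMPK-KO libraries.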

How the data were processed

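RNA-seq of sorted TAMs was analysed in 12 libraries, 3 for each of early-stage, late-stage, WT and AMPK-KO. The authors mapped reads with HISAT2 and counted them with featureCounts, per the labels and the methods, and deposited raw counts per gene in 1 table per comparison, without normalization. Versions, strand and the handling of shared reads are not given in the sources used here. The methods write GRCh38 and the submitters' processing notes mm10 and GRCm38, and 54349 of the 55401 identifiers match GENCODE M21 (GRCm38) with their version, from which positions and exon lengths were taken.

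Each table was filtered with filterByExpr, scaled by TMM and fitted by quasi-likelihood in edgeR 4.0.16 (R 4.3.3), with Benjamini-Hochberg adjustment over all genes tested and calls at an adjusted p under 0.05. The prior count for log2 CPM was 2. The fit was tested on simulated data. No pair of libraries was identical. Alternatives were RLE and upper-quartile factors, library totals, DESeq2 1.42.0, other filters, a replicate block, and leaving out single libraries. The 10 genes and the gene lists were chosen with earlier results of these data known. Named are the 10 genes, the 4 tested genes of each pathway list with the smallest adjusted p, the 3 genes most like S100a8, Saa3 and Chil3, the sort and check genes, and genes of marker lists at 0 or most abundant. The neutrophil genes near 0 or above 1000 counts were named after their values were seen. Python 3.11.15, pandas 2.3.3 and matplotlib 3.10.9 were used for summaries and plots.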

Additional observations from a re-analysis of the deposited data

How the results depend on the processing

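The main fit treated the libraries as unpaired. Deviations of same-numbered libraries correlated at 0.0132, 0.0181 and 0.0255 for the stages and at 0.0423, -0.0039 and 0.00138 for the genotypes. Such values, taken over all genes tested, cannot show whether same-numbered libraries were handled together. With the replicate block, the genes called numbered 1417 for late-stage against early-stage (1619 without it) and 3862 for AMPK-KO against WT (3693 without it), and the other neutrophil genes called 9 and 16 (9 and 17 without it). For late-stage against early-stage, the genes called numbered 2467 with DESeq2, 936 with no filter beyond 1 count and 653 to 2835 with single libraries left out, namely 2835 and 680 without early-stage replicate 1 and 2 and 853, 653 and 682 without late-stage replicate 1, 2 and 3. For AMPK-KO against WT they numbered 2414 to 4039 with single libraries left out, 2414 without WT replicate 3 and 2419 without AMPK-KO replicate 2. Fewer samples or other genes tested come with these settings. For the stages, the number called rose without early-stage replicate 1, fell without replicate 2 and was 1698 without replicate 3. The causes were not tested. Over the alternatives run, the other neutrophil genes called numbered 7 to 10 for the stages and 15 to 17 for the genotypes, and those of the 10 genes 6 to 7 and 4 to 6. The fitted members kept their direction in the alternatives that gave a value, except Chil3 for AMPK-KO against WT, which ran from -0.08 to 0.06 on the log2 scale. S100a9 and Cxcr2 for the stages and Cxcr2 and Retnlg for the genotypes had no value with at least 10 counts asked of every library. Of 1062 values recomputed, 977 kept their call, or moved by less than the limits set. Depth limits Retnlg and Cxcr2, and S100a8 and S100a9 in late-stage TAMs.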
